A study of Homo sapiens with 4 samples.

Results

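The genes described here build and control the mitotic spindle: the kinases and cyclins that start mitosis, the spindle checkpoint, the kinetochore, the mitotic kinesins, and the proteins of anaphase and cytokinesis. They are 49 genes named as a list by symbol, out of 16490 genes with values, and they were measured by RNA-seq in MV4-11, a human acute myeloid leukemia (AML) cell line with monocytic features. There were 2 libraries of control cells carrying a non-targeting short hairpin RNA (sh-NC) and 2 libraries of cells carrying a hairpin against the transcription factor CEBPG (sh-CEBPG#3). Per the study's methods, hairpins were delivered by lentivirus and stable cells were selected with puromycin, so both groups carry the vector and the selection. The knockdown group rests on 1 hairpin in 1 cell line, the control libraries are labelled as having CEBPG present, and neither the time of RNA harvest nor whether each library had its own infection is given in the sources used here. P-values therefore measure the spread between these libraries, which may be technical. Values are FPKM (fragments counted per kilobase of transcript and relative to all mapped reads of the library), summed over the RefSeq transcripts of each gene, and FPKM allows levels of different genes to be set side by side because it is scaled by length.

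At the onset of mitosis, CDK1 bound to cyclin A or cyclin B phosphorylates many proteins, and the duplicated centrosomes organise microtubules into a bipolar spindle. Kinetochores, assembled on centromeric chromatin, attach each chromosome to spindle microtubules, and unattached kinetochores feed the spindle assembly checkpoint, which holds back the anaphase-promoting complex until all chromosomes are attached. Most of these genes are transcribed late in the cell cycle, and their mRNA levels peak in G2 and mitosis.

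CEBPG itself was at 30.4 and 33.6 FPKM in sh-NC and at 19.3 and 17.1 FPKM in sh-CEBPG#3, 56.8% of control (log2 fold change -0.78, SE 0.09, adjusted p = 8.88e-05 in limma). The values carry no read counts, so the depth of each library is unknown. FPKM totals lay between 364353 and 389766, and log2 levels correlated across genes at 0.993 and 0.994 within the groups and at 0.962 to 0.964 between them. All 9 myeloid markers looked up for MV4-11 were present in every library. At an adjusted p under 0.05 in limma, CD33 (log2 fold change 0.37), CSF1R (0.80), SPI1 (0.33) and LYZ (2.37) were higher in sh-CEBPG#3. HOXA9 (-0.36) and MEIS1 (-0.87) were lower by this rule, and FLT3, ITGAM and PTPRC were not called. The summed level of the 9 myeloid markers was 834 and 902 FPKM in sh-NC and 3446 and 3275 FPKM in sh-CEBPG#3, and most of that difference was lysozyme (LYZ), at 567 and 610.5 against 3126 and 2982 FPKM. MEIS1, a cofactor of HOXA9 in leukemic progenitors, was at 6.65 and 7.34 against 3.42 and 3.29 FPKM. Markers of T cells and fibroblasts stayed at or below 0.18 FPKM in sum, those of B cells at or below 3.24 FPKM, and the epithelial markers KRT8 and KRT18 summed to 12.1 and 12.9 FPKM in sh-NC and to 16.0 and 14.8 FPKM in sh-CEBPG#3. KRT8 rose from 2.29 and 2.35 to 6.26 and 6.19 FPKM (log2 fold change 1.12, adjusted p = 1.55e-05 in limma), while KRT18 was at 9.77 and 10.6 against 9.75 and 8.57 FPKM and was not called. The part of these changes in marker genes in the results below was not tested. In bulk RNA, fewer cells in mitosis and less of these mRNAs per cell cannot be told apart.

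The mitotic genes were lower in sh-CEBPG#3 cells almost throughout. All 49 passed the filter of a mean of at least 0.5 FPKM, and 46 of them fell at an adjusted p under 0.05 (limma on log2(FPKM + 1), Benjamini-Hochberg adjustment over 12142 genes). Of all genes tested, 23.8% were lower and 18.5% were higher by this rule. None of the 49 was higher in limma, and none was higher at an unadjusted p under 0.05 either. In 48 of the 49, both sh-CEBPG#3 libraries lay below both sh-NC libraries, a pattern that 40.2% of all genes tested showed. The median log2 fold change of the 49 was -0.68, against -0.04 for all genes tested, and the sh-CEBPG#3 mean lay between 38.5% and 93.6% of the control mean, with a median of 59.7%. The 3 genes not called were the cytokinesis genes ECT2 and ANLN and the centrosomal kinase AURKA.

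**Figure D1:**
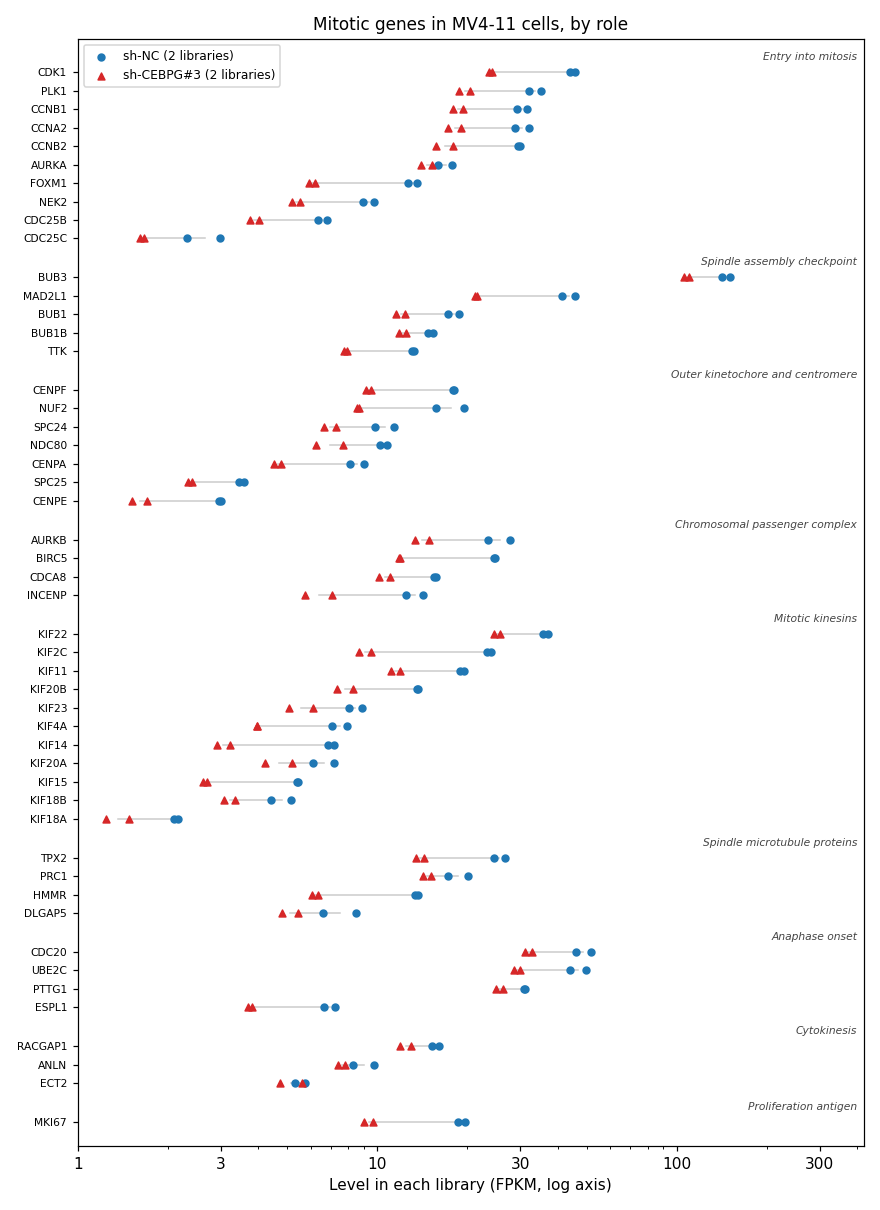
Level of each of the 49 mitotic genes in each library (FPKM, log axis), grouped by role. Circles are the 2 sh-NC libraries, triangles the 2 sh-CEBPG#3 libraries and grey lines join the group means; the triangles lie left of the circles for all genes except ECT2.

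The levels spanned a wide range within this list. BUB3 was the most abundant, with 141 and 150.3 FPKM in sh-NC, and KIF18A the least, with 2.15 and 2.09 FPKM. The 49 genes lie on 18 chromosomes, with at most 7 on any of them. In the control libraries, 36 of the 49 lay above the median level of all genes tested, which was 7.57 FPKM. Summed over the list, the level was 952 and 1021 FPKM in sh-NC and 629.5 and 603 FPKM in sh-CEBPG#3. With the threshold the study states, an unadjusted p under 0.05 and a log2 change beyond 1, KIF2C, HMMR and FOXM1 passed on the log2(FPKM + 1) scale, where 1.05% of all genes tested were lower by this rule. The added 1 understates a fold change, and with pseudocounts of 0.1 and 0.01 in its place 9 and 10 of the 49 passed; 10 had an sh-CEBPG#3 mean below 50% of the control mean. That count of 3 turned on single libraries: it was 8 without sh-NC replicate 1, 2 without sh-NC replicate 2, 6 without sh-CEBPG#3 replicate 1 and 1 without sh-CEBPG#3 replicate 2. Just short of it on the log2(FPKM + 1) scale lay BIRC5 at -0.996, MAD2L1 at -0.99 and KIF14 at -0.98, although their means were at 48.1%, 49.2% and 43.7% of control.

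**Figure D2:**
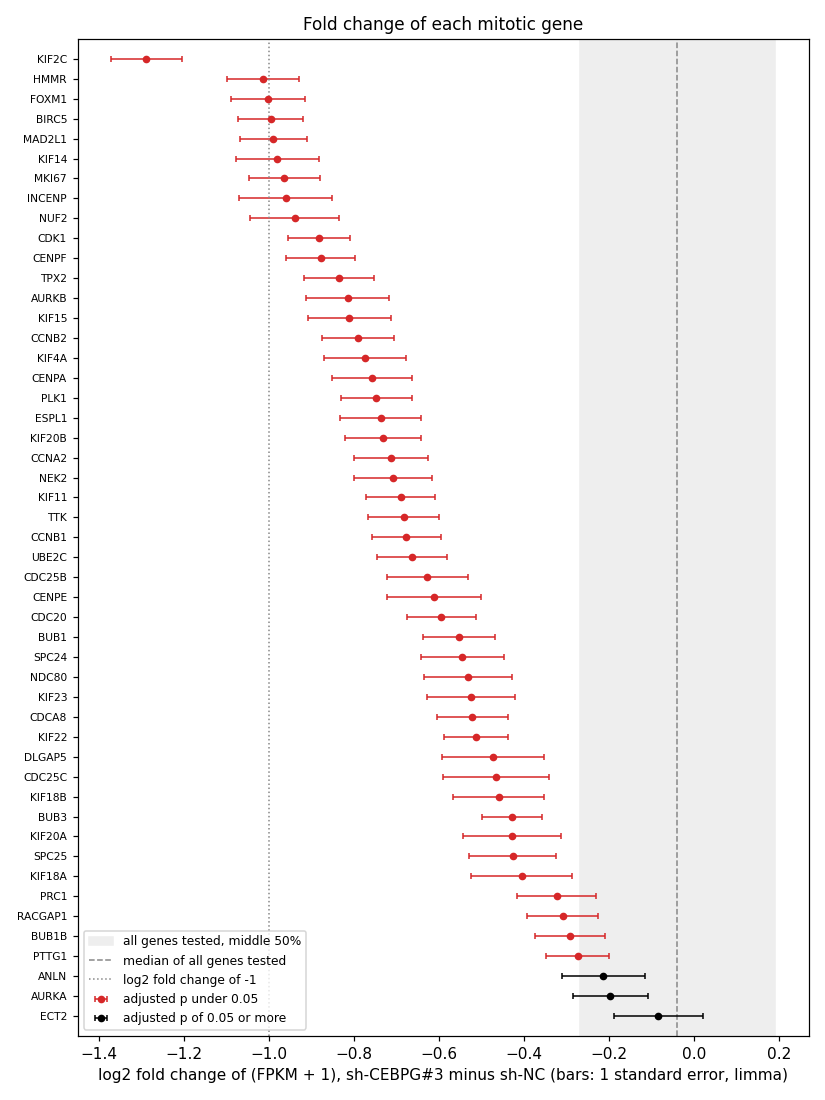
Log2 fold change of (FPKM + 1) of each mitotic gene, sh-CEBPG#3 minus sh-NC, with bars of 1 standard error from limma; the grey band holds the middle 50% of all genes tested. The values run from -1.29 for KIF2C to -0.08 for ECT2, all below the median of all genes tested (-0.04, dashed).

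Many late cell cycle genes share 2 short promoter elements, the CCAAT box (CCAAT), which is bound by the factor NF-Y, and the cell cycle genes homology region or CHR (TTTGAA), which is bound by MuvB complexes with or without B-MYB and FOXM1. Both were searched on both strands of a 300-base window, from 250 bases before to 50 bases after the annotated start, for the 41 of the 49 genes that the RefSeq promoter table of GRCh38.p14 lists. The genes without an entry are BUB3, BIRC5, RACGAP1, TTK, TPX2, UBE2C, FOXM1 and AURKA. The 150 bases before the start are printed here 5′ to 3′ on the gene's strand, with CCAAT boxes and CHR elements of either strand in capitals. CCNB2, PLK1, HMMR, MKI67 and KIF4A show the shared arrangement, with CCAAT boxes followed by a CHR near the start. KIF2C is shown because it had the largest decrease and neither element in its window, and ECT2 and ANLN because they were not called although they hold such elements. The windows lie at chr15:59104996-59105145 on the plus strand (CCNB2), chr16:23678739-23678888 on the plus strand (PLK1), chr5:163460482-163460631 on the plus strand (HMMR), chr10:128126424-128126573 on the minus strand (MKI67), chrX:70289954-70290103 on the plus strand (KIF4A), chr1:44739687-44739836 on the plus strand (KIF2C), chr3:172750576-172750725 on the plus strand (ECT2) and chr7:36389712-36389861 on the plus strand (ANLN).
CCNB2: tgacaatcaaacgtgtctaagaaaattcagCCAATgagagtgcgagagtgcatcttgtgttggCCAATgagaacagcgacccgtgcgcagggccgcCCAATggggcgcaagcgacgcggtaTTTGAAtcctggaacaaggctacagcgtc
PLK1: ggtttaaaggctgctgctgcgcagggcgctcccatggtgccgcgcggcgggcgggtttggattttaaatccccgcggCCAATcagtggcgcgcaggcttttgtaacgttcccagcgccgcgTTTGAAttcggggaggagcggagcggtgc
HMMR: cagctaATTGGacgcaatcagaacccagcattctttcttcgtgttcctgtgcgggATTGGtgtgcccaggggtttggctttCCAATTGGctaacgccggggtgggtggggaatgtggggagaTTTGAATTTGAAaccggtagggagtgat
MKI67: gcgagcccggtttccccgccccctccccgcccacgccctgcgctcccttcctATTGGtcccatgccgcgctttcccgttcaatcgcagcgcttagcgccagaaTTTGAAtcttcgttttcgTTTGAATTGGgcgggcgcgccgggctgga
KIF4A: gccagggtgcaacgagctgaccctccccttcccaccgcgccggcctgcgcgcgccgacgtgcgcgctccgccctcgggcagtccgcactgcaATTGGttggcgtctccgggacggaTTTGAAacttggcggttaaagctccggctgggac
KIF2C: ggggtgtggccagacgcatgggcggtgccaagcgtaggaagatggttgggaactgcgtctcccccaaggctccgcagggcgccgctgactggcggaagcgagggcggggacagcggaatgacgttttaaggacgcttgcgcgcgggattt
ECT2: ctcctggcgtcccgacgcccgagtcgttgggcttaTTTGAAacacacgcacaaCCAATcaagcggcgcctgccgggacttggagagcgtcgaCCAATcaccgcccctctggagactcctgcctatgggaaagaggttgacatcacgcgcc
ANLN: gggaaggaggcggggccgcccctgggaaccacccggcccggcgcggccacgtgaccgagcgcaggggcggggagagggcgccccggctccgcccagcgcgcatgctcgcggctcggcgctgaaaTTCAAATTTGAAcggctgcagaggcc

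In CCNB2 the printed stretch holds CCAAT boxes that begin 120, 87 and 54 bases before the start and a CHR that begins 29 bases before it. PLK1 has 1 box at 73 bases and a CHR at 29 bases, and KIF4A has a box at 58 bases and a CHR at 34 bases. In HMMR, 2 overlapping boxes of opposite strands form the run with the letters CCAATTGG, and CHR elements follow at 28 and 22 bases. In MKI67 the CHR at 29 bases shares its last letter with a box that begins 24 bases before the start. In these 5 genes, chosen as examples, a box stood before a CHR close to the start. Their levels fell to between 45.8% (HMMR) and 58.4% (PLK1) of control. Other genes with this order fell by a similar amount or less. ESPL1, with a box at 48 bases and a CHR at 31 bases, was at 54.2% of control. CDCA8, with a box at 75 bases and a CHR at 23 bases, was at 67.8%. PRC1, with a box at 53 bases and a CHR at 20 bases, was at 78.7%.

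At least 1 CCAAT box was found in 32 of the 41 windows (78.0%), against 35.7% of 27305 promoters and 37.0% of the 9185 promoters of genes tested. At least 2 boxes were found in 19 windows (46.3%), against 11.3% of all promoters. A CHR was found in 28 windows (68.3%), against 15.4% of all promoters and 9.61% of those of genes tested. Both elements together were present in 23 windows (56.1%) and in 6.08% of all promoters. Of the 63 CCAAT boxes, 48 began between 20 and 110 bases before the start. In 14 genes, 2 boxes began 25 to 45 bases apart, and in 18 genes a CHR began within the 60 bases before the start. These positions were counted in the 41 windows only, so they cannot be set against other promoters.

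**Figure D3:**
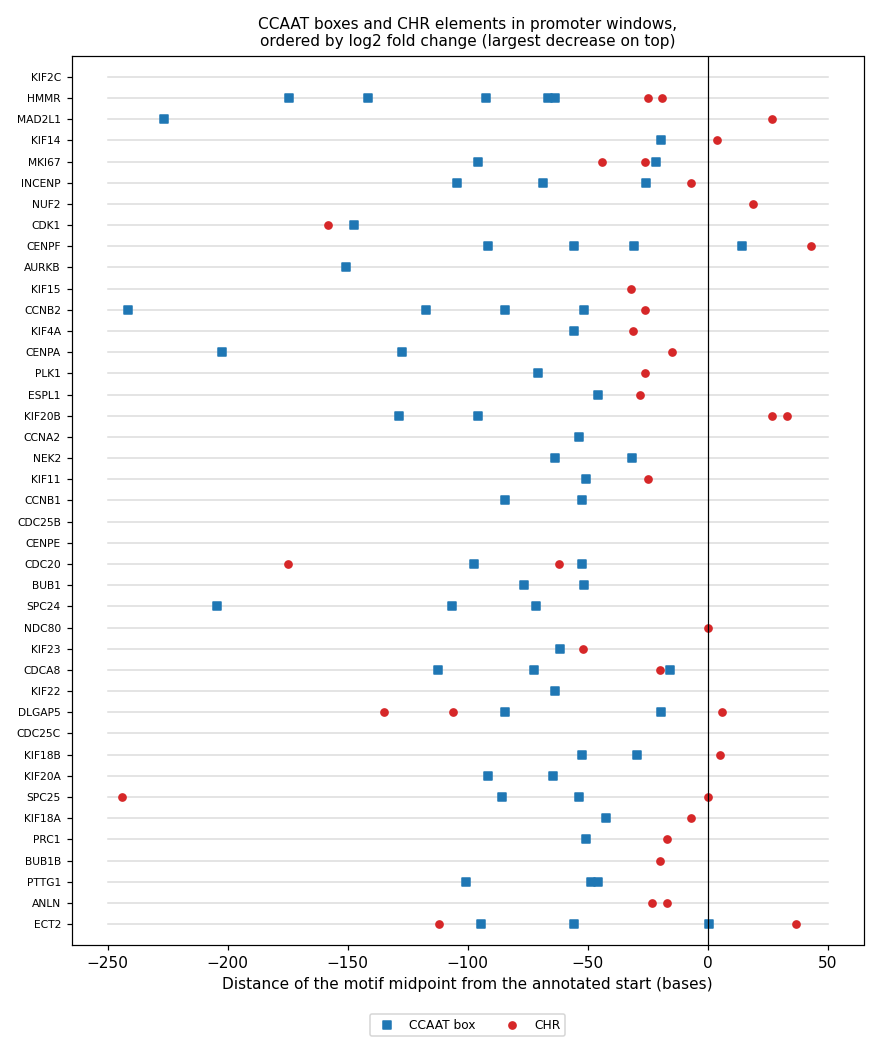
Midpoints of CCAAT boxes (squares) and CHR elements (circles) along the 300-base window of 41 mitotic genes, in bases from the annotated start (vertical line); genes are ordered from the largest decrease at the top to the smallest at the bottom. The boxes gather between 110 and 20 bases before the start, and the windows of KIF2C, CDC25B, CENPE and CDC25C hold neither element. Each window lies at the start listed at the top for the gene, and other starts were not searched.

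Other motifs were rarer in these windows. An E2F site (TTTCCCGC, TTTGGCGC or TTTCGCGC) was found in 3 of the 41 windows, 7.32% against 2.79% of all promoters and 4.94% of those of genes tested. The palindromic C/EBP motif TTGCNNAA was also found in 3 windows, 7.32% against 10.6% of all promoters and 7.04% of those of genes tested. The composite C/EBP-ATF motif TGATGCAA was in 0 of the 41 windows, in 0.92% of all promoters and in 0.49% of those of genes tested. A match is a description of the letters in the window, and no binding was measured here.

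Fold changes by promoter content, as read at the start used for each gene, overlapped widely. The 23 genes with both elements had a median log2 fold change of -0.74, the 5 with a CHR only -0.53, the 9 with CCAAT boxes only -0.55 and the 4 with neither -0.62. ECT2, at -0.08, belongs to those with both elements and KIF2C, at -1.29, to those with neither. Among the other genes tested, 357 held both elements, and 29.1% of them were lower at an adjusted p under 0.05 in limma. That share was 23.7% for a CHR only, 23.7% for CCAAT boxes only and 23.3% for neither, so most other genes with these letters in the window were not called lower.

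Among the 10 genes of entry into mitosis, 9 fell and the median log2 fold change was -0.71. CDK1, the kinase that drives the G2 to M transition, was at 43.99 and 45.7 FPKM in sh-NC and at 24.1 and 23.7 FPKM in sh-CEBPG#3 (log2 fold change -0.88, SE 0.07, adjusted p = 1.21e-05 in limma). Its partner CCNB1 was at 29.3 and 31.6 against 19.4 and 17.9 FPKM, and CCNB2, the other B-type cyclin, at 30.1 and 29.4 against 17.9 and 15.7 FPKM. CCNA2, the cyclin of S phase and early mitosis, was at 28.8 and 32.0 against 19.1 and 17.2 FPKM. For each of these genes the groups did not overlap, and the gap between groups was larger than the gap within either.

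Polo-like kinase PLK1, which acts in centrosome maturation and mitotic entry, was at 32.0 and 35.1 FPKM in sh-NC and at 20.5 and 18.7 FPKM in sh-CEBPG#3 (log2 fold change -0.75, SE 0.08, adjusted p = 8.61e-05 in limma). FOXM1, a transcription factor that activates many of the genes described here, was at 12.7 and 13.6 against 6.17 and 5.93 FPKM, and its decrease to 46.1% of control was the largest of the entry genes. NEK2, a kinase that separates centrosomes, was at 9.79 and 8.97 against 5.20 and 5.51 FPKM. The phosphatases that activate CDK1 were lower as well, CDC25B at -0.63 and CDC25C at -0.47 on the log2 scale. CDC25C had low levels, 2.32 and 2.99 against 1.66 and 1.61 FPKM, and without sh-NC replicate 2 its adjusted p in limma was 0.109. AURKA, which matures centrosomes and activates PLK1, was at 16.0 and 17.8 against 15.2 and 14.01 FPKM (log2 fold change -0.20, SE 0.09, adjusted p = 0.098 in limma). Its 2 groups were separated by a smaller gap than that between the sh-NC libraries, and the value turned on single libraries. In limma the log2 fold change was -0.27 without sh-NC replicate 1 (adjusted p = 0.034), -0.12 without sh-NC replicate 2 (adjusted p = 0.399), -0.25 without sh-CEBPG#3 replicate 1 (adjusted p = 0.119) and -0.14 without sh-CEBPG#3 replicate 2 (adjusted p = 0.385). CCNA2, CDC25C and FOXM1 overlap genes on the opposite strand, EXOSC9, FAM53C and ITFG2, whose log2 fold changes were 0.01, -0.02 and 0.07. Whether counting used the strand is not given in the sources used here, and reads of such partners cannot then be told apart.

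The 5 checkpoint genes all fell, with a median log2 fold change of -0.55, and they fell by unequal amounts. MAD2L1, which encodes the Mad2 protein that inhibits CDC20, was at 41.3 and 45.8 FPKM in sh-NC and at 21.3 and 21.5 FPKM in sh-CEBPG#3 (log2 fold change -0.99, SE 0.08, adjusted p = 9.85e-06 in limma). TTK, the kinase that starts checkpoint signalling at the kinetochore, was at 13.1 and 13.3 against 7.76 and 7.90 FPKM. BUB1, the kinase that recruits other checkpoint proteins, was at 17.3 and 18.8 against 12.4 and 11.6 FPKM. These 3 genes showed no overlap, with the sh-CEBPG#3 means at 49.2%, 59.4% and 66.5% of control.

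BUB3, the adaptor that carries BUB1 and BUB1B to kinetochores, was at 141 and 150.3 against 110.1 and 106 FPKM, 74.1% of control. BUB1B, which encodes the BubR1 subunit of the mitotic checkpoint complex, was at 14.7 and 15.4 against 12.5 and 11.8 FPKM (log2 fold change -0.29, SE 0.08, adjusted p = 0.016 in limma). The BUB1B call rested on few libraries, since the adjusted p in limma was 0.053 without sh-NC replicate 2 and 0.103 without sh-CEBPG#3 replicate 2. The ratio of MAD2L1 to BUB1B, members of the same inhibitory complex, was 2.80 and 2.97 in sh-NC and 1.71 and 1.83 in sh-CEBPG#3, a pair chosen after its values were seen and not tested.

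The 7 genes of the outer kinetochore and centromere all fell, with a median log2 fold change of -0.61. Of the 4 subunits of the NDC80 complex, which binds microtubules directly, NUF2 was at 15.7 and 19.5 against 8.57 and 8.72 FPKM, the largest decrease among them (log2 fold change -0.94, SE 0.10, adjusted p = 8.52e-05 in limma). NDC80 was at 10.2 and 10.7 against 6.25 and 7.70 FPKM, SPC24 at 9.84 and 11.4 against 7.29 and 6.61 FPKM, and SPC25 at 3.59 and 3.46 against 2.33 and 2.40 FPKM. The log2 fold changes of these 3 subunits lay between -0.54 and -0.43. The 4 subunits make up the complex in equal numbers, while their mRNA levels in the control libraries differed, with NUF2 above and SPC25 below the others.

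CENPF, a large kinetochore protein of G2 and mitosis, was at 18.1 and 17.9 FPKM in sh-NC and at 9.13 and 9.52 FPKM in sh-CEBPG#3. CENPA, the histone H3 variant that marks centromeres, was at 8.13 and 9.003 against 4.79 and 4.53 FPKM. CENPE, the kinesin that carries chromosomes to the spindle equator, was at 3.004 and 2.96 against 1.70 and 1.51 FPKM. All 3 had non-overlapping groups and lay at 51.9% to 54.4% of control, and the log2(FPKM + 1) scale understates the change of a gene as low as CENPE.

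The chromosomal passenger complex, which corrects faulty attachments and later acts in cytokinesis, had the lowest median of the roles with 4 or more genes, -0.89, and its 4 genes all fell. BIRC5, which encodes survivin, was at 24.6 and 24.7 FPKM in sh-NC and at 11.8 and 11.9 FPKM in sh-CEBPG#3 (log2 fold change -0.996, SE 0.08, adjusted p = 7.75e-06 in limma). INCENP, the scaffold, was at 12.5 and 14.2 against 7.07 and 5.72 FPKM, and AURKB, the kinase subunit, at 23.4 and 27.8 against 14.9 and 13.4 FPKM. CDCA8, which encodes borealin, was at 15.7 and 15.5 against 11.0 and 10.1 FPKM, a smaller decrease (-0.52) than those of its partners. The ratio of BIRC5 to CDCA8 was 1.57 and 1.59 in sh-NC and 1.07 and 1.18 in sh-CEBPG#3, and was not tested. The levels of the kinases AURKA and AURKB came together, with the ratio of AURKB to AURKA at 1.47 and 1.56 in sh-NC and at 0.98 and 0.95 in sh-CEBPG#3, again a ratio chosen after its values were seen and without a test.

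All 11 mitotic kinesins fell, with a median log2 fold change of -0.69. KIF2C, which depolymerises microtubules at centromeres, was at 24.0 and 23.2 FPKM in sh-NC and at 9.503 and 8.66 FPKM in sh-CEBPG#3, 38.5% of control (log2 fold change -1.29, SE 0.08, adjusted p = 2.54e-06 in limma). It had the largest decrease of the 49 genes. KIF14, a kinesin of cytokinesis, was at 7.18 and 6.83 against 3.21 and 2.91 FPKM, and KIF15, which helps to keep the spindle bipolar, at 5.45 and 5.40 against 2.62 and 2.71 FPKM. KIF4A, a motor of chromosome arms and the central spindle, was at 7.05 and 7.95 against 3.97 and 3.96 FPKM. KIF11, the motor that pushes the spindle poles apart, was at 18.9 and 19.4 against 11.9 and 11.1 FPKM. Each of these 5 kinesins fell well beyond the spread within the groups.

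KIF20B, a motor of cytokinesis, was at 13.6 and 13.7 against 8.29 and 7.33 FPKM. KIF23, the motor subunit of centralspindlin, was at 8.02 and 8.87 against 6.08 and 5.08 FPKM, and KIF22, which pushes chromosome arms away from the poles, at 35.6 and 37.1 against 25.8 and 24.6 FPKM. KIF18B was at -0.46, KIF20A at -0.43 and KIF18A at -0.41 on the log2(FPKM + 1) scale, and as these are low genes their means, at 66.9%, 70.6% and 64.1% of control, give another order beside KIF22 at 69.3%. KIF20A, which brings the passenger complex to the central spindle, was at 6.11 and 7.19 against 4.22 and 5.17 FPKM. Its adjusted p in limma was 0.051 without sh-NC replicate 2 and 0.083 without sh-CEBPG#3 replicate 1, and it overlaps BRD8 and CDC23 on the opposite strand, with log2 fold changes of -0.38 and 0.23. KIF18A, which dampens chromosome movements at the equator, was at 2.15 and 2.09 against 1.49 and 1.24 FPKM, and its adjusted p in limma was 0.057 without sh-NC replicate 1 and 0.092 without sh-CEBPG#3 replicate 2. KIF4B, a near copy of KIF4A, was at or below 0.078 FPKM in every library, and AURKC, a close relative of AURKB, at or below 0.37 FPKM.

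The 4 spindle microtubule proteins all fell, with a median of -0.65 and a wide spread. HMMR, a microtubule-binding protein of the spindle poles, was at 13.3 and 13.7 FPKM in sh-NC and at 6.32 and 6.04 FPKM in sh-CEBPG#3 (log2 fold change -1.01, SE 0.08, adjusted p = 1.25e-05 in limma). TPX2, which activates AURKA on the spindle, was at 24.5 and 26.6 against 14.4 and 13.4 FPKM, and so fell to 54.3% of control while AURKA was at 86.5% and not called. DLGAP5, a protein of kinetochore fibres, was at 6.57 and 8.49 against 5.42 and 4.80 FPKM. PRC1, which bundles the microtubules of the central spindle, was at 17.2 and 20.04 against 15.1 and 14.2 FPKM. Leaving out a library ended these last calls in limma: DLGAP5 had a log2 fold change of -0.31 and an adjusted p of 0.060 without sh-NC replicate 2, against -0.47 with all libraries, and PRC1 had 0.096 without sh-NC replicate 2 and 0.102 without sh-CEBPG#3 replicate 2.

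The 4 genes of anaphase onset all fell, with a median of -0.63. CDC20, the activator of the anaphase-promoting complex, was at 45.9 and 51.6 against 32.9 and 31.0 FPKM. UBE2C, the ubiquitin-conjugating enzyme of that complex, was at 43.9 and 49.8 against 28.5 and 29.8 FPKM (log2 fold change -0.66, SE 0.08, adjusted p = 0.000171 in limma). ESPL1, which encodes separase, the protease that cuts cohesin, was at 6.65 and 7.24 against 3.82 and 3.71 FPKM, and PTTG1, which encodes securin, the inhibitor of separase, at 31.2 and 30.9 against 24.9 and 26.2 FPKM. The mRNA of ESPL1 thus stood at 54.2% of control and that of PTTG1 at 82.2%, and neither protein was measured. The PTTG1 call (-0.27, adjusted p = 0.014 in limma) had an adjusted p of 0.122 without sh-CEBPG#3 replicate 1, 0.0502 without sh-CEBPG#3 replicate 2, and 0.056 when the replicate number was fitted as a block.

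The 3 genes listed under cytokinesis changed least of the roles, with a median of -0.21 and 1 of 3 called. Genes of cytokinesis listed elsewhere fell more. Among the kinesins these were KIF14 (-0.98), KIF20B (-0.73) and KIF23 (-0.52), and among the other spindle genes CIT (-0.82). RACGAP1, the GTPase-activating subunit of centralspindlin, was at 15.2 and 16.1 against 13.0 and 11.9 FPKM (log2 fold change -0.31, SE 0.08, adjusted p = 0.014 in limma), with an adjusted p of 0.109 without sh-CEBPG#3 replicate 2. ANLN, which encodes anillin, a scaffold of the contractile ring, was at 8.28 and 9.73 against 7.80 and 7.42 FPKM (log2 fold change -0.21, 95% interval -0.43 to 0.005, adjusted p = 0.106 in limma), and its log2 fold change was -0.32 without sh-NC replicate 1 (adjusted p = 0.031) and -0.11 without sh-NC replicate 2 (adjusted p = 0.530). ECT2, the exchange factor that activates RhoA at the equator, was at 5.31 and 5.73 against 5.61 and 4.73 FPKM. Its groups overlapped, and its log2 fold change of -0.08 had a 95% interval from -0.31 to 0.15. It was -0.13 and -0.04 without sh-NC replicate 1 or 2, and -0.19 and 0.0196 without sh-CEBPG#3 replicate 1 or 2. A small decrease or increase of ECT2 is therefore not distinguishable in these 4 libraries. MKI67, the proliferation antigen Ki-67 that coats mitotic chromosomes, was at 18.7 and 19.7 FPKM in sh-NC and at 9.69 and 8.999 FPKM in sh-CEBPG#3, 48.7% of control (log2 fold change -0.96, SE 0.08, adjusted p = 1.61e-05 in limma).

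The 49 genes were measured as 114 RefSeq transcripts, and 18 of the genes have 1 transcript. Tested per transcript in limma, 32 of the 92 transcripts that passed the filter, from 31 of the genes, were lower at an adjusted p under 0.05, and 0 were higher. Of all transcripts tested, 4.08% were lower and 4.16% higher. At an unadjusted p under 0.05, 57 of the 92 were lower and 0 higher, and 13 had a log2 fold change above 0.

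Within several genes the transcripts moved unequally. For CDK1, the transcript NM_033379 was at 12.7 and 26.4 FPKM in sh-NC and listed at 0 in both sh-CEBPG#3 libraries, while NM_001786 was at 28.6 and 16.0 against 22.2 and 22.3 FPKM. The gene's decrease thus lay in NM_033379 as the values are split, and that split differed even between the sh-NC libraries. For CENPE, NM_001286734 was at 1.93 and 2.90 FPKM in sh-NC and listed at 0 in both sh-CEBPG#3 libraries, and NM_001813 was at 1.07 and 0.056 against 1.70 and 1.51 FPKM. For TTK, the minor transcript NM_001166691 was at 3.25 and 3.50 against 0.054 and 0.12 FPKM (adjusted p = 0.017 in limma per transcript), and the main transcript NM_003318 was at 9.80 and 9.79 against 7.70 and 7.78 FPKM, not called. How the authors' program shared reads among transcripts is not given, so levels per transcript are less certain than those per gene.

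KIF2C was lower in both of its transcripts, with NM_006845 at 19.5 and 18.0 against 8.60 and 8.28 FPKM and NM_001297655 at 4.49 and 5.23 against 0.90 and 0.39 FPKM. For CDCA8, the minor NM_018101 was lower (log2 fold change -1.10, adjusted p = 0.040 in limma per transcript) and the major NM_001256875 was not called (-0.35). For BUB3, NM_004725 was lower, at 83.8 and 87.1 against 54.0 and 53.7 FPKM, while NM_001007793 was at 57.1 and 63.3 against 56.1 and 52.1 FPKM and was not called. PRC1 had opposite signs in 2 transcripts, NM_199413 at 0.12 and NM_003981 at -1.004 on the log2 scale, and neither was called.

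Other genes of the cell cycle, from lists set beside the 49, give the surroundings of these values. Of 29 other spindle and microtubule genes, 22 were lower and 0 higher (median -0.41, and 0 higher at an unadjusted p under 0.05 in limma). SKA3, a kinetochore protein that tracks microtubule ends, had a log2 fold change of -0.91 and CIT, the citron kinase of cytokinesis, one of -0.82, while CKAP2 (-0.28) and NEDD1 (-0.26) had the smallest called decreases on this scale. Of 31 other kinetochore and centromere genes, 21 were lower and 0 higher in limma (median -0.38, with 1 higher at an unadjusted p under 0.05). CENPI, of the inner kinetochore, was at 2.81 and 2.94 against 0.89 and 0.79 FPKM, and DSN1, of the complex that joins inner and outer kinetochore, at 9.501 and 10.3 against 4.55 and 4.44 FPKM. KNL1 (-0.30) and CENPN (-0.27) changed least among those called.

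Condensin, which compacts mitotic chromosomes, was lower in 7 of 8 genes and higher in 0 in limma, also at an unadjusted p under 0.05 (median -0.53). Its called values ran from NCAPD3 (-0.81) and SMC2 (-0.76) to NCAPD2 (-0.51) and NCAPH2 (-0.28). The anaphase-promoting complex and its regulators were mixed, with 7 of 17 lower and 2 higher (median -0.20). In that list ANAPC15 (-0.87) and FBXO5 (-0.59), the inhibitor known as EMI1, fell and the subunits CDC27 (0.33) and CDC23 (0.23) rose. CDC20 and UBE2C, which work with this complex, fell, while most of the 17 were not called lower.

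Of 20 other mitotic kinases and regulators, 10 were lower and 1 higher (median -0.24). HASPIN, the kinase that marks centromeric histone H3 for the passenger complex, was at 7.31 and 7.57 against 2.84 and 2.56 FPKM, and CKS1B, a small partner of CDK1, at 68.7 and 73.1 against 38.9 and 35.3 FPKM. NEK7 (-0.27) changed least of those lower, and NEK6, a kinase of spindle formation, rose from 18.2 and 19.2 to 33.8 and 31.3 FPKM (log2 fold change 0.77, adjusted p = 5.20e-05 in limma). Among 18 cell cycle transcription factors, 12 were lower and 0 higher in limma, also at an unadjusted p under 0.05 (median -0.42). E2F8, a repressor of S phase genes, had a log2 fold change of -1.13, and MYBL2, which encodes B-MYB, was at 54.0 and 58.0 against 25.6 and 25.3 FPKM. The MuvB subunits LIN9 (-0.39) and LIN54 (-0.33) had the smallest called decreases of that list.

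Genes listed as interphase transport kinesins were mostly not called. That list is not made of cargo motors alone. It also holds the light chains KLC1, KLC2 and KLC4 and the kinesin KIF2A (-0.0075, not called). Of 23 listed, 16 passed the filter, 2 were lower, KIF9 (-0.51) and KIF16B (-0.34), and 1 was higher, KLC2 (0.41), with a median of -0.04. The 44 genes of DNA replication were 34 lower and 0 higher in limma, with 1 higher at an unadjusted p under 0.05 (median -0.53). MCM6 (-1.15) and MCM4 (-1.04), subunits of the replicative helicase, changed most and POLA1 (-0.36) and RPA2 (-0.27) least among those called. Of 14 G1 cyclins, kinases and inhibitors tested, of 16 listed, 5 were lower and 4 higher (median -0.10). CCND1 (-0.71), CCNE1 (-0.71) and CDK2 (-0.58) fell, and so did the inhibitors CDKN2C (-0.58) and CDKN2D (-0.28). The inhibitor CDKN1A rose, at 169 and 179 against 342 and 326 FPKM, as did CDKN1B (0.44) and the cyclin CCND2 (0.26). CDKN1C (0.55) was also higher, at low levels of 0.38 and 0.49 against 1.10 and 1.10 FPKM. The changes of these G1 genes, in both directions, and of the replication genes were seen in the same libraries as those of the mitotic genes. Their part in the result was not tested.

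**Figure D4:**
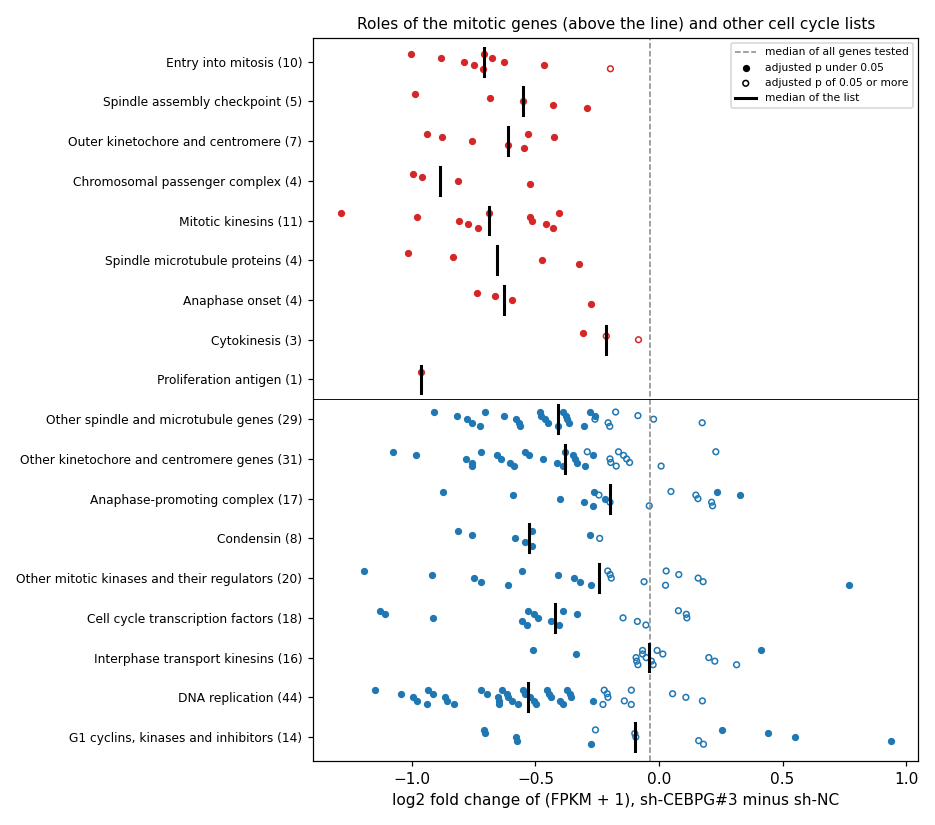
Log2 fold change of each gene by role of the 49 mitotic genes (upper part) and by other cell cycle list (lower part), with filled points for an adjusted p under 0.05 in limma, thick bars for medians and the dashed line for the median of all genes tested (-0.04). The roles' medians run from -0.96 for the single gene MKI67 to -0.21 for the 3 genes listed under cytokinesis. The median of the list of interphase transport kinesins is -0.04.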

How the data were processed

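RNA was extracted with Trizol and libraries were made with the Illumina TruSeq RNA kit, per the labels. Filtered reads were mapped to hg38 with HISAT2 2.0.5, per the submitters' processing notes, and the authors deposited FPKM values for 28780 RefSeq transcripts, of which 199 have no value. The program behind the FPKM values, its annotation release and its use of strand are not given in the sources used here. The authors called genes with DESeq2, which takes counts; no count test was run here on FPKM. Of 1027 and 1118 low transcripts, at most 1.17% shared a ratio between libraries (within 1%), so no steps of whole reads were seen and depth is unknown.

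Transcripts were summed per symbol. Genes whose mean over the 4 libraries reached 0.5 FPKM were tested on log2(FPKM + 1) with limma 3.58.1 in R 4.3.3 (lmFit, eBayes with trend, no block), with Benjamini-Hochberg adjustment over 12142 genes. The script was tested on simulated data. Motifs were searched with Python 3.11.15 in RefSeq promoters, taking the start listed at the top for each gene, and overlapping genes come from GENCODE 44. The 49 genes, their roles and the other lists were chosen with earlier results of these data known. All 49 are given, and each other list is named by its 2 lowest and 2 highest called fold changes. For the G1 list, all called genes are given. Myeloid, T cell, B cell, erythroid, epithelial and fibroblast markers were looked up; no erythroid marker was analysed here. Alternative settings were a replicate block, equal totals, quantile normalization, a filter at 1 FPKM or none, a pseudocount of 0.1 or 0.01, the main transcript alone, and each library left out. For counts of calls, the fits to the other 3 libraries were added after seeing the data; there the lone library is assumed to vary like the other group. The replicate numbers come from the titles.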

Additional observations from a re-analysis of the deposited data

How the results depend on the processing

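No gene of the 49 was higher under any alternative. With all 4 libraries kept, the count of 46 lower genes lay between 42 and 48 under the others, except with a single transcript per gene. The transcript with the highest mean over the 4 libraries alone gave 26. The count past the study's threshold, 3, was 9 and 10 with pseudocounts of 0.1 and 0.01, 1 with quantile normalization and 6 with equal totals, and 1 to 8 when single libraries were dropped. For the median of -0.68 the value was -0.74 with either pseudocount and -0.70 to -0.62 with each library left out, while the median of all genes stayed between -0.07 and -0.005. CDK1 (0.054) and PRC1 (0.12) reversed with that transcript alone, where 18 other genes lost their call in the fit over 18624 transcripts, 5 of them with the same fold change, 3 with a larger and 10 with a smaller decrease, and ECT2 ran from -0.19 to 0.0196 with each library left out, above 0 without sh-CEBPG#3 replicate 2. Without a filter CDC25C, KIF20A, PRC1 and DLGAP5 lost their calls, and with equal totals AURKA and ANLN gained them (adjusted p = 0.019 and 0.035 in limma). Same-numbered libraries did not deviate together (correlation 0.061). That single value across genes cannot tell whether they shared an infection or a harvest. The replicate block gave 45 lower genes. The causes were not tested. Depth is unknown, so no detection limit can be given.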
